A study of Danio rerio with 2 samples.

Results

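The cytosolic ribosomal protein (RP) genes of zebrafish kidney marrow were followed here across neutrophils of rising lyz content and across the other blood cell classes of the same organ. They were taken as all features whose symbol is rpl or rps (rplp and rpsa included) followed by a number, without the rps6k kinases and the mitochondrial mrpl and mrps genes, and with at least 20 counts. Of 25109 features, 83 symbols matched and 82 reached the minimum, 48 of the large (60S) and 34 of the small (40S) subunit. The symbol left out, rps8b, had 3 counts. The members with the fewest counts were a second rpl37 feature with 578 (ENSDARG00000076360, an ID that the reference name table pairs with a different symbol), rpl26 with 1451, rps19bp1 with 4007, rpl7l1 with 5221 and rps27l with 5852. The rule takes in rps19bp1 by its symbol, although the gene encodes a partner protein of Rps19 and not a ribosomal protein.

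Both libraries came from 2 adult male Tg(lysC:CFPNTR)/Tg(BACmmp9:Citrine-CAAX) fish of 6 months, in which lyz regulatory sequence drives CFP in neutrophils and mmp9 regulatory sequence drives membrane Citrine. The LysC+ sorted library pooled the CFP-positive cells of both fish from all Mmp9 gates (NO, INT and HI), and the whole kidney marrow (WKM) library pooled live cells of both fish without a reporter gate. Each portion carried a lipid-anchored barcode, but no map from cells to fish or to Mmp9 gates was used here, so each library is 1 sample and no p-value can be given. Every interval (95%, exact) covers counting error only. The labels also call the WKM cells PBMCs. The comparisons ask how the RP mRNA content of a neutrophil goes with its content of lyz, the lysozyme gene, and how the other classes of marrow cells compare with neutrophils.

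After filtering, 15102 sorted cells (49531298 UMIs, median 2236 per cell) and 8191 WKM cells (40709152 UMIs, median 3357) remained, and 62 cell barcodes were present in both libraries. Leaving these out moved neither ratio between lyz bands beyond its counting interval. The neutrophil gate (at least 6 of 8 markers) held 14941 of the sorted cells. Globins made up 0.0332% of the sorted UMIs, against 12.8% of the WKM UMIs. In the WKM library, the gates were set on the markers given next, so marker levels describe the gates and do not test them. All 10 non-globin erythroid markers were detected in the erythroid gate (7797 CPM, UMI counts scaled to 1e+06 per group, against 406 CPM in the neutrophil gate). So were all 13 monocyte or macrophage markers in their gate (12449 against 215 CPM) and all 10 B cell markers in theirs (9131 against 17.6 CPM). All 15 T or NK cell markers were detected in theirs (4028 against 43.8 CPM), as were 13 of 14 hematopoietic stem and progenitor cell (HSPC) markers in theirs (1215 against 248 CPM). Detected means with any counts in the group. The neutrophil gate also had counts for 10 erythroid, 13 monocyte or macrophage, 9 B cell, 14 T or NK cell and 13 HSPC markers.

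RPs assemble with ribosomal RNA in the nucleolus into the 40S and 60S subunits, and each ribosome holds a single copy of most of them. Their mRNAs are among the most abundant of a growing cell, and most begin with a terminal oligopyrimidine (TOP) tract through which the mTOR pathway sets their translation together. Loss of a copy of certain RP genes causes Diamond-Blackfan anemia in humans, in which red cell production fails. Several zebrafish RPs are encoded by a pair of related genes, and of the 79 standard RP names, 73 had at least a single member here.

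The members with most counts over both libraries were rplp1, a protein of the ribosomal stalk, with 738693 UMIs (3.58% of all RP UMIs), its stalk partner rplp0 with 651582, rpl39 with 567920, the 40S gene rps2 with 521014, and rps12 with 496541. They were followed by rpl37 with 459483 (ENSDARG00000034291), rpl19 with 444941, rps7 with 418301, rpl8 with 409800 and rps26l with 408377. The 10 most abundant members of a band or gate made up between 24.03% (the sorted cells with 2 to 5% lyz) and 30.8% (the most globin-rich erythroid cells) of its RP UMIs. Large-subunit over small-subunit RP UMIs stood between 1.19 (T or NK cell gate) and 1.26 (sorted, lyz over 10%) in every group. Across neutrophils, a cell's large-subunit share followed its small-subunit share closely (Spearman's rho 0.859 over 14941 sorted cells and 0.903 over 5303 WKM cells; both shares come from the same cells and depth, so this is a description).

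In sorted neutrophils, the RP share of UMIs was highest in the cells richest in lyz. RP genes took 13.2% of UMIs in the 6578 cells with under 2% lyz (25th to 75th percentile of cells 11.4 to 14.4%), 16.5% in the 3045 cells with 2 to 5% lyz, 18.8% in the 3714 cells with 5 to 10% lyz, and 21.7% in the 1765 cells with over 10% lyz (18.2 to 23.5%). The ranges from the 25th to the 75th percentile did not overlap between the lowest and highest bands, while those of the bands in between overlapped (13.5 to 17% with 2 to 5% lyz and 13.5 to 18.9% with 5 to 10% lyz). Cells with under 2% lyz had 0.609-fold the share of those with over 10% (log2 -0.72, interval -0.72 to -0.71). Because lyz itself fills part of the denominator, the bands were also read over UMIs other than lyz and globins, and the distance widened (13.4, 17.1, 20.3 and 24.99% from the lowest to the highest lyz band, log2 -0.90). Over single cells, RP share and lyz share went together in both libraries (rho 0.647 in sorted and 0.668 in WKM neutrophils; 0.743 and 0.750 with lyz left out of the denominator of the RP share; the points share library and depth).

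WKM neutrophils, from a portion of the same marrows without a reporter gate, gave the same order of bands. In the neutrophil gate, RP genes took 16.8% of UMIs with under 2% lyz (2167 cells), 19.9% with 2 to 5% (1197 cells), 22.6% with 5 to 10% (1032 cells) and 23.8% with over 10% lyz (907 cells), a log2 ratio of -0.50 between the ends. Among neutrophil-gated cells with 2% lyz or more, none was left out for markers of other classes, as those gates require under 2% lyz. From the lowest to the highest band of this gate, monocyte or macrophage markers came to 141, 573, 223 and 47.6 CPM. Globins took 5.81, 5.79, 3.49 and 1.67% of UMIs there. The part of either in the RP shares was not tested. Over all WKM cells the ratio of summed UMIs had the opposite sign (log2 0.47), with 32.8% in cells with under 2% lyz, against 23.7% in cells with over 10%. Here 1 member was at least 2-fold higher (rpl22l1, 1685 against 702 CPM), where 22% of features were called higher, and 0 at least 2-fold lower, where 5.37% were. The gates of all other classes require under 2% lyz, so these cells lie in the lowest band. Its median cell was at 17.99%, below the 22.5% of the median cell with over 10% lyz, as in sorted cells. Its 95th percentile was at 56.2%, against 33.5% in cells with over 10% lyz. The plot of RP share by lyz band shows both patterns.

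**Figure D1:**
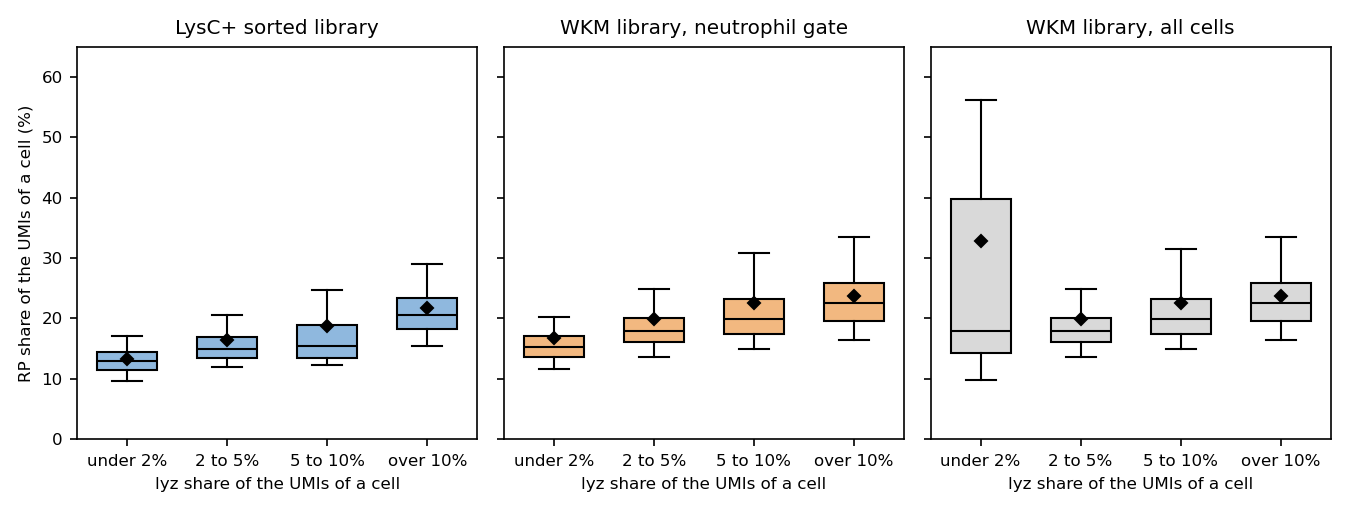
RP share of UMIs (%, y axis) by lyz share of the cell (x axis) in the LysC+ sorted library, the neutrophil gate of the WKM library and all WKM cells; boxes span the 25th to 75th percentile of cells with the median as a line, whiskers the 5th to 95th percentile, and diamonds the share of the summed UMIs. The summed share is higher in each next lyz band, up to 21.7% in sorted and 23.8% in WKM neutrophils, while the all-cell panel has a long upper tail under 2% lyz.

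Depth, cell cycle and mmp9 differed between the bands. From the lowest to the highest sorted lyz band, mitosis genes took 0.0093, 0.0506, 0.0792 and 0.0631% of UMIs. Replication genes took 0.0193, 0.0598, 0.0982 and 0.127% of UMIs. The median sorted cell had 1667 UMIs with under 2% lyz, against 7072 with over 10%, and RP share went with total UMIs across cells (rho 0.655 in sorted, 0.605 in WKM neutrophils). Among sorted neutrophils of 2000 to 5000 UMIs alone, the order of bands was the same at 13.8, 16.04, 16.96 and 18.95% from the lowest to the highest lyz band, and likewise in WKM neutrophils of that depth (16.8, 18.6, 20.5 and 21.5%). Among sorted neutrophils of 500 to 2000 UMIs the shares were 12.7, 14.3, 13.7 and 16.7% (50 cells in the highest band), so the bands in between were not in order. Above 5000 UMIs the sorted shares were 20.1, 21.1 and 22.02% from 2 to 5% lyz upwards. Those of WKM neutrophils ran the other way by summed UMIs (25.9, 24.5 and 24.2%), with 75 cells at 2 to 5% lyz. By median cell these WKM bands were at 19.4, 20.1 and 23.2%, in the same order as the sorted bands. The 75th percentile of the 75 cells was 32.5%, above the 95th percentile of the whole WKM neutrophil gate (28.01%). In these WKM bands the gates left out no cell for markers of other classes. Sorted neutrophils with at least 3 replication genes and fewer than 3 mitosis genes had a higher RP share than those with fewer than 3 of either. Their RP share was 20.6% against 15.7% at 2 to 5% lyz, 21.9% against 17.1% at 5 to 10% lyz and 22.3% against 21.7% at over 10% lyz. They were also deeper, at medians of 3886.5 against 2324, 5362 against 2441 and 7905 against 5793 UMIs in these bands. The part of depth in this contrast was not tested. Cells with at least 3 mitosis genes were at 16.6, 18.6 and 20.8% in the same bands. Sorted neutrophils with an mmp9 UMI had 13% RP UMIs against 13.6% without at under 2% lyz, 15.4% against 17.5% at 2 to 5% lyz, 16.5% against 20.4% at 5 to 10% lyz, and 20.4% against 22% at over 10% lyz. Detecting an mmp9 UMI depends on depth. Cells with an mmp9 UMI had medians of 1948, 2734, 2270 and 7645 UMIs from the lowest to the highest band. Those without had 1546, 2284, 4031 and 7031 UMIs, so only at 5 to 10% lyz were they the deeper cells. The part of depth in this contrast was not tested either. The median mitochondrial share went down along the bands (2.15, 1.57, 1.28 and 0.945% from under 2% to over 10% lyz), as did the share of heat shock and immediate early genes (0.814, 0.608, 0.548 and 0.478%); the part of either in the RP difference was not tested.

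The RP genes were lower together, by unequal amounts. Between sorted cells with under 2% and over 10% lyz, 79 of 82 members were lower and 3 higher. At least 2-fold lower were 18 members, or 22% of them, where 12.2% of the 10430 features tested were called lower. At least 2-fold higher were 0 members, where 27.9% of features were called higher. The median member was at log2 -0.71, and the median of all features at 0.44. Relative to the median feature, the median member was at -1.15 and 81 of 82 members were lower. In the WKM neutrophil gate 78 of 82 were lower with a median of -0.51 (median of all features 0.50); 1 member was at least 2-fold lower, where 8% of features were called lower, and 0 at least 2-fold higher, where 26.2% were. Only 1 member differed in sign between sorted and WKM neutrophils. The members' log2 ratios had an SD of 0.39 in the sorted library, against 1.19 over the other 2342 features with at least 1000 counts.

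Among single members, the steepest gradient was that of rpl22l1, the paralog of the 60S gene rpl22. It stood at 161, 267, 431 and 665 CPM from the lowest to the highest sorted lyz band, a log2 ratio of -2.05 between under 2% and over 10% (interval -2.12 to -1.98). The 60S core genes rpl7 (1210 CPM with under 2% lyz against 3241 CPM with over 10%, log2 -1.42) and rpl7a (1589 against 3883 CPM, -1.29) came next. They were followed by the stalk gene rplp2l (1597 against 3700 CPM, -1.21) and the 40S gene rps7 (1926 against 4357 CPM, -1.18). In the WKM neutrophil gate, rpl7 (1603 against 3330 CPM, -1.06), rpl7a (-0.91) and rpl22l1 (375 against 703 CPM, -0.91) had the lowest ratios. Next were rpl15 (1318 against 2427 CPM, -0.88) and rpl3, a gene of the peptidyl transferase region (1593 against 2787 CPM, -0.81).

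At the other end were genes that were not lower, or hardly so. In sorted cells, rplp2 stood at 1284, 1240, 1133 and 1042 CPM from the lowest to the highest lyz band (log2 0.30). rps27l, a paralog of rps27 known in mammals as a p53 target, stood at 64.2, 69.0, 60.6 and 52.6 CPM (0.29). rps19bp1 stood at 59.8, 50.01, 47.02 and 34.7 CPM (0.78). Relative to the median feature the sign turned for rplp2 (-0.14) and rps27l (-0.15), but not for rps19bp1 (0.34). Next were rpl22 at 1491, 1562, 1533 and 1558 CPM (log2 -0.06; -0.50 relative to the median feature) and the 40S gene rps21 at 2954, 3108, 3065 and 3173 CPM (-0.10). The WKM neutrophil gate gave rps19bp1 (0.47), rps27l (0.44), rplp2 (0.21), rpl22 (-0.04) and rpl26 (-0.04, from 108 and 166 counts) as its highest members, and all 82 were lower relative to the median feature. The intermediate sorted bands lay in between, with median members of -0.42 at 2 to 5% lyz and -0.21 at 5 to 10% lyz over the highest band; rpl22l1 was at -1.32 and -0.62 there. It was the 1 member at least 2-fold lower at 2 to 5% lyz, where 5.71% of features were called lower; 0 were higher, where 10.8% were. At 5 to 10% lyz 0 members were at least 2-fold lower or higher, where 1.27% of features were called lower and 3.38% higher.

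Outside the neutrophils, the HSPC gate had the highest RP share of all UMIs. Over UMIs other than lyz and globins it was at 53.5%, beside 53.3% in cells of both the HSPC and the erythroid gate. RP genes took 52.7% of UMIs in the 402 HSPC-gated cells (interval 52.7 to 52.8%; 5th to 95th percentile of cells 35.4 to 59.9%), against 21.2% in the 5303 neutrophil-gated cells (12.5 to 28.01%), a 2.49-fold ratio (log2 1.32). The T or NK cell gate was at 44.2% (115 cells, log2 1.06 over neutrophils), the B cell gate at 42.4% (98 cells, 1.002) and the monocyte or macrophage gate at 39.04% (491 cells, 0.88). Of the cells of these gates, 96.8% (HSPC), 93.04% (T or NK), 96.9% (B) and 94.9% (monocyte or macrophage) lay above the 95th percentile of the neutrophil gate. The ranges from the 25th to the 75th percentile overlapped among the last of these gates, with 35.8 to 51.7% in T or NK cells, 36.2 to 47.6% in B cells and 33.6 to 42.7% in monocytes or macrophages. Set against neutrophils with under 2% lyz, the limit all these gates have, HSPC were at log2 1.65, T or NK cells at 1.40, B cells at 1.34 and monocytes or macrophages at 1.22. Depth was not level, at a median of 6584 UMIs in HSPC, 9345 in monocytes or macrophages, 2445 in B cells and 2088 in T or NK cells, against 2490 in neutrophils. Within 2000 to 5000 UMIs, HSPC (93 cells) had 51.1% RP UMIs and T or NK cells (61 cells) 44.8%, against 19.2% in neutrophils. The gates also had counts for markers on the lists of other classes. Neutrophil markers came to 646 CPM in HSPC, 1266 in monocytes or macrophages, 2122 in B cells and 2692 CPM in T or NK cells, against 142446 CPM in neutrophils. Monocyte or macrophage markers came to 732 CPM in HSPC, 4994 CPM in B cells (7 of 13 markers with counts) and 2858 CPM in T or NK cells, against 215 CPM in neutrophils. Their part in these shares was not tested.

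The order of erythroid cells and neutrophils changed with the denominator, the gate, the depth and the neutrophils compared. The erythroid gate (674 cells) had 17.7% RP UMIs, below the 21.2% of neutrophils (log2 -0.26), but globins filled 59.9% of its UMIs, against 3.85% in neutrophils. Within 2000 to 5000 UMIs the erythroid gate (155 cells) had 21.1% RP UMIs, above the 19.2% of neutrophils. Above 5000 UMIs it had 17.2% (508 cells), below the 24.7% of neutrophils. Over UMIs other than lyz and globins the erythroid gate was at 44.1%, above the 23.8% of neutrophils (log2 0.89), and relative to the median feature its log2 ratio was 0.84. With all UMIs kept, it was 0.24 with 1 more marker per gate and 0.0795 over neutrophils with under 2% lyz. The 275 cells that met both the HSPC and the erythroid gate had 39.8% of all UMIs and 53.3% of those other than lyz and globins. These values lie between those of the erythroid gate and those of the HSPC gate (52.7 and 53.5%), and above those of neutrophils. All cells of the erythroid or of both gates were then split by globin share. RP genes took 49.7% of UMIs with under 25% globin (219 cells), 30.7% with 25 to 50% (192 cells), 13.9% with 50 to 75% (397 cells) and 7.41% with over 75% globin (141 cells). Leaving out lyz and globins, the same bands had 54.7, 50.3, 41.1 and 33.3%, a smaller gradient in the same direction (log2 -2.75 over all UMIs and -0.72 over the rest, globin over 75% over under 25%).

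**Figure D2:**
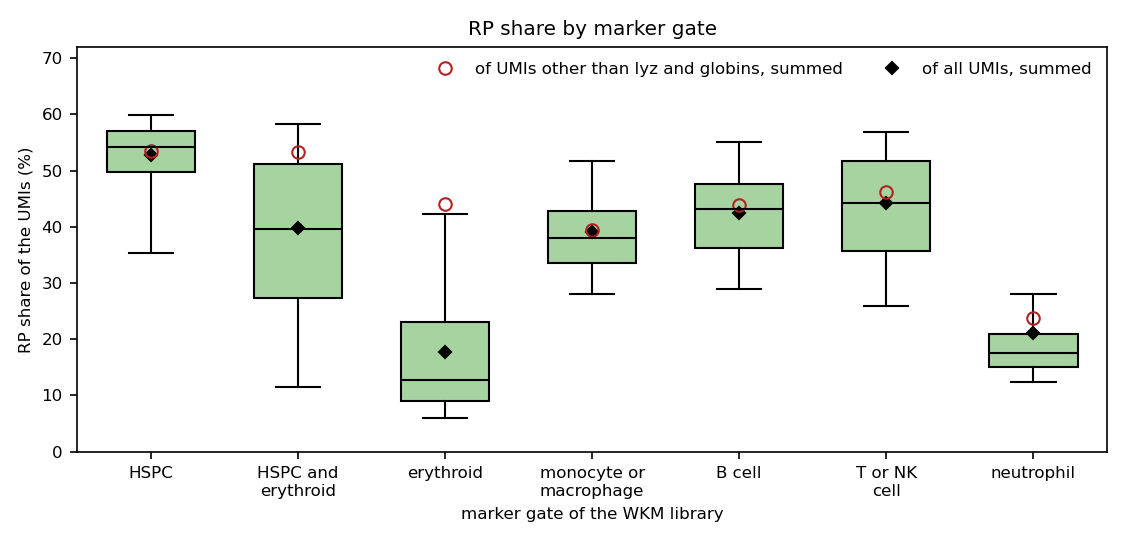
RP share of UMIs (%, y axis) for the marker gates of the WKM library (x axis), boxes and whiskers over cells as quartiles and 5th to 95th percentiles; diamonds give the share of all summed UMIs and open circles the share of UMIs other than lyz and globins. HSPC stand at 52.7% and neutrophils at 21.2%, and the erythroid circle (44.1%) lies far above its diamond (17.7%).

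Member by member, the HSPC gate was above the neutrophil gate for all 82 genes, and 75 were at least 2-fold higher, where 17.1% of the 10442 features tested were called higher (median member log2 1.31, median feature -0.10). At least 2-fold lower were 0, where 26.8% of features were called lower. rplp1 had 20872 CPM in HSPC against 7638 CPM in neutrophils. rplp0 had 18187 against 6690 CPM, rps12 15855 against 4795 CPM and rpl39 13404 against 6174 CPM. The largest ratios belonged to rpl22l1 (2825 against 537 CPM, log2 2.40) and rpl7l1, a relative of rpl7 that acts in 60S assembly in humans (140 against 40.2 CPM, 1.79). Next were rps12 (1.73), rplp2l (11002 against 3442 CPM, 1.68) and rpl5b, which encodes a binding protein of 5S ribosomal RNA (1132 against 369 CPM, 1.62). The smallest were rps19bp1 (47.9 against 46.8 CPM, 0.03) and rplp2 (1201 against 1128 CPM, 0.09). They were followed by rpl22 (2790 against 1680 CPM, 0.73), the low-count rpl37 feature (31 against 103 UMIs, 0.93) and rps29 (9053 against 4714 CPM, 0.94). Over UMIs other than lyz and globins rplp2 (-0.06) and rps19bp1 (-0.12) turned in sign.

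The median member was at log2 1.03 in T or NK cells, 0.94 in B cells, 0.93 in cells of both the HSPC and the erythroid gate and 0.90 in monocytes or macrophages. At least 2-fold higher than in neutrophils were 43 members in the T or NK cell gate, where 18.9% of features were called higher, 28 in the B cell gate (21.6%), 28 in cells of both the HSPC and the erythroid gate (13.8%) and 21 in the monocyte or macrophage gate (16.9%). At least 2-fold lower were 2 members in T or NK cells, where 31.3% of features were called lower. There were 0 such members in B cells (31.7% of features), cells of both gates (39.7%) and monocytes or macrophages (17.1%). rpl22l1 had the highest ratio in the both-gate cells (2585 against 537 CPM in neutrophils, log2 2.27), in monocytes or macrophages (1841 CPM, 1.78) and in B cells (1879 CPM, 1.81), and was second to rps26l in T or NK cells (1390 CPM, 1.37, against 1.39 for rps26l). rplp2 stayed near its neutrophil level of 1128 CPM in monocytes or macrophages (1086 CPM, log2 -0.05) and B cells (1100 CPM, -0.04). The 2 members below in T or NK cells rest on few counts: rps19bp1 had 6 UMIs (log2 -1.11, interval -2.56 to 0.02) and the low-count rpl37 feature 0, which allows up to 3, so neither gives a ratio that can be read.

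In the erythroid gate 1 member was at least 2-fold higher, where 8.2% of features were called higher, and 4 at least 2-fold lower, where 56% were called lower. The member above was rpl22l1 (1214 against 537 CPM, log2 1.18). Those below were rps27l (8.91 against 63.2 CPM, -2.83) and rps19bp1 (9.30 against 46.8 CPM, -2.33), then rplp2 (506 against 1128 CPM, -1.16) and rpl22 (784 against 1680 CPM, -1.10). With lyz and globins left out, rps27l (-1.68) and rps19bp1 (-1.18) were still lower, while rplp2 (-0.01) and rpl22 (0.05) were level with neutrophils. Between erythroid cells with over 75% and under 25% globin, 81 members were at least 2-fold lower, where 67.9% of features were called lower, and 0 at least 2-fold higher, where 4.92% were. Least reduced were rplp2 (364 against 927 CPM, log2 -1.35) and rpsa, the laminin receptor and 40S gene (2326 against 8315 CPM, -1.84). They were followed by rplp0 (4433 against 16802 CPM, -1.92), rpl12 (947 against 4140 CPM, -2.13) and rplp2l (-2.14). Most reduced were rps27l (1 against 194 UMIs, a log2 ratio of -6.61 with an interval of -11.93 to -4.12) and rpl7l1 (8 against 370 UMIs, -4.55). Next were rps9 (561 against 7643 CPM, -3.77), rps27.2 (173 against 2333 CPM, -3.75) and rpl15 (432 against 5320 CPM, -3.62). Of these, rplp2, rpsa and rplp0 were higher, not lower, once lyz and globins were left out (log2 0.68, 0.19 and 0.11).

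**Figure D3:**
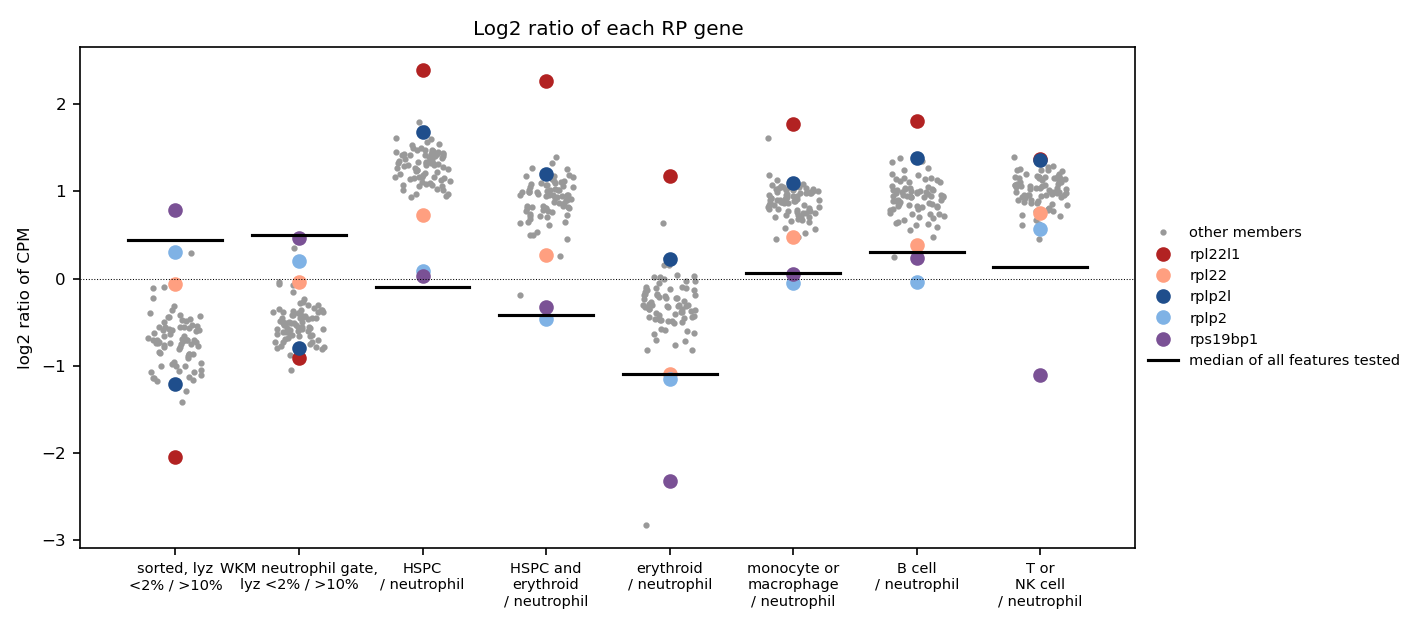
Log2 ratio of CPM (y axis) of each RP gene in 8 comparisons (x axis), grey points for members and coloured points for rpl22l1, rpl22, rplp2l, rplp2 and rps19bp1; black bars mark the median of all features tested, and the low-count rpl37 feature, at 0 in T or NK cells, is not drawn there. The red point of rpl22l1 lies at the lower edge in lyz-poor neutrophils (-2.05 in the sorted library) and at the upper edge in HSPC (2.40), while rplp2 lies at 0.30 and 0.09.

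Within pairs of paralogs, the share of a gene does not depend on how the libraries are scaled. rpl22l1 made up 9.72% of the rpl22 and rpl22l1 UMIs in sorted cells with under 2% lyz (interval 9.32 to 10.1%, 20622 UMIs of the pair), 14.6% with 2 to 5%, 21.96% with 5 to 10% and 29.9% with over 10% lyz (29.4 to 30.4%). In the WKM neutrophil gate the shares were 18.9, 19.75, 23.99 and 29.8% in the same order, and the intervals of the lowest bands overlapped (18.04 to 19.75% and 18.88 to 20.65%). The globin share of UMIs went down along these WKM bands (5.81 to 1.67%), and the part of RNA from other cells was not tested. Outside neutrophils rpl22l1 took 50.3% of the pair in HSPC, 56.1% in cells of both gates, 60.8% in erythroid cells, 44.1% in monocytes or macrophages, 46.15% in B cells and 33.0% in T or NK cells, against 24.2% in all WKM neutrophils. With rising globin, the erythroid cells had 55.7, 58.0, 62.3 and 65.4%. In mice, Rpl22 is known to repress its paralog's mRNA and to be needed in T cell development. The rpl22l1 share differed with depth, in no single direction. Among sorted neutrophils of 2000 to 5000 UMIs it was 8.72, 10.9, 14.96 and 17.6% from the lowest to the highest lyz band, and above 5000 UMIs 25.5, 26.1 and 30.9% from 2 to 5% lyz upwards. In sorted neutrophils of 500 to 2000 UMIs it was 10.3, 15.5, 23.1 and 18.03%, highest at 5 to 10% lyz. In WKM neutrophils of 2000 to 5000 UMIs the shares were 16.3, 13.8, 16.1 and 19.3%. Above 5000 UMIs they were 37.9% (75 cells), 30.5% and 31.6% from 2 to 5% lyz upwards, with no steady order at either depth. From 2% lyz upwards the gates left out no cell for markers of other classes, and the part of such cells was not tested. Within 2000 to 5000 UMIs rpl22l1 took 46.3% of the pair in HSPC, against 15.8% in all WKM neutrophils. Above 5000 UMIs it took 50.8% in HSPC, against 32.1% in all WKM neutrophils.

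The acidic stalk genes were ordered the other way. rplp2 and rplp2l both encode the acidic stalk protein P2. rplp2 made up 44.6% of rplp2 and rplp2l UMIs in sorted cells with under 2% lyz, 35.5% with 2 to 5%, 28.2% with 5 to 10% and 21.98% with over 10% lyz, and 33.1, 28.8, 23.5 and 19.7% in the WKM neutrophil gate, with no overlap of counting intervals between bands. It took 9.84% in HSPC, 9.40% in cells of both gates, 11.2% in erythroid cells, 12.9% in monocytes or macrophages, 10.9% in B cells and 15.98% in T or NK cells, against 24.7% in WKM neutrophils. The level of rplp2 was between 1042 and 1284 CPM in all sorted bands and 1201 CPM in HSPC, while that of rplp2l went through 1597, 2251, 2889 and 3700 CPM in the sorted bands and stood at 11002 CPM in HSPC. Among sorted neutrophils of 2000 to 5000 UMIs the rplp2 share was 44.2, 37.6, 33.5 and 29.2%, and in WKM neutrophils of that depth 36.1, 32.5, 28.8 and 24.1%. Above 5000 UMIs it was 27.4, 24.8 and 21.4% in sorted neutrophils from 2 to 5% lyz upwards. In WKM neutrophils of that depth it was 18.05% (75 cells), 19.6% and 18.99%, with no decline along the bands. Cells with markers of other classes were not left out of these WKM bands either.

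**Figure D4:**
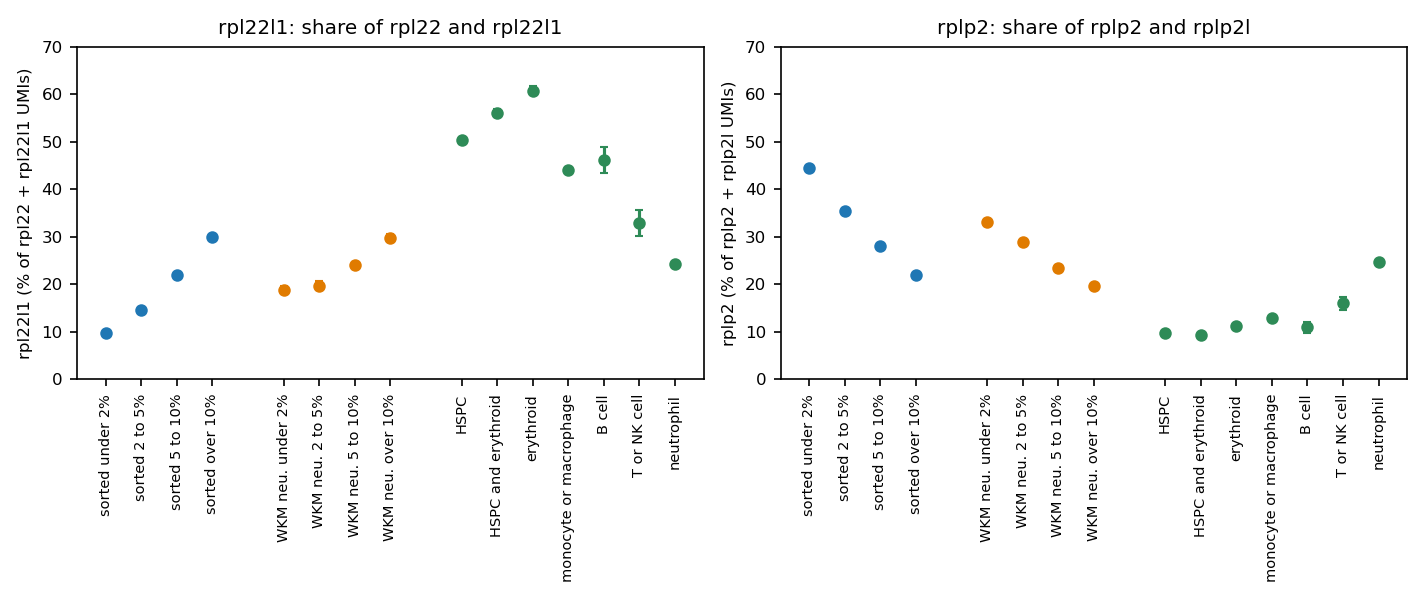
Share (%, y axis) of rpl22l1 in rpl22 and rpl22l1 UMIs (left) and of rplp2 in rplp2 and rplp2l UMIs (right) by group (x axis), for sorted lyz bands, lyz bands of the WKM neutrophil gate and WKM marker gates; bars are exact counting intervals, often smaller than the point. The rpl22l1 share is higher in each next lyz band of sorted cells (9.72 to 29.9%) and is above 60% in erythroid cells, while the rplp2 share runs the opposite way (44.6 to 21.98%).

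Across the sorted bands, the remaining pairs varied by fewer percentage points. rpl5b took 39.8, 37.4, 37.9 and 40.5% of rpl5a and rpl5b UMIs in the sorted bands and 47.2% in HSPC, against 38.5% in WKM neutrophils. rps26 took 29.98 to 31.9% of rps26 and rps26l UMIs in the sorted bands and 28.9% in HSPC, against 31.6% in WKM neutrophils. rps27.2 made up 21.7 to 23.25% of rps27.1 and rps27.2 UMIs in the sorted bands and 26.2% in HSPC, against 21.9% in WKM neutrophils, but it shifted with globin, at 12.8% over 75% and 30% under 25% globin. rps27l, as a share of the 3 rps27 genes, was 2.72, 2.27, 1.76 and 1.42% in the sorted bands and 0.31% in erythroid cells, against 1.72% in WKM neutrophils. rpl7l1 was 2.46 to 1.95% of rpl7 and rpl7l1 in the sorted bands, from low to high lyz. Reads that fit both genes of a similar pair can be lost or split in counting, so these shares are less certain than levels of single genes.

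Sorted neutrophils were also set against WKM neutrophils of the same lyz band. The RP share was lower in the sorted library in all bands, with log2 ratios of -0.34, -0.27, -0.26 and -0.13 from the lowest to the highest lyz band, and -0.47, -0.45, -0.45 and -0.32 relative to the median feature. At least 2-fold lower were 2 members with under 2% lyz, where 3.5% of features were called lower, and 1 member in each other band (2.53, 2.21 and 1.17% of features). At least 2-fold higher were 0 members in each band, where 7.03, 6.18, 5.97 and 5.67% of features were called higher. The member lower in every band was rpl26, which had 3.67, 3.23, 3.26 and 5.11 CPM in sorted neutrophils (45, 28, 49 and 68 UMIs), against 26.2, 22.4, 25.9 and 26.97 CPM in WKM neutrophils, with log2 ratios of -2.83, -2.79, -2.99 and -2.40. In cells with under 2% lyz, rpl22l1 was the other (158 against 375 CPM, -1.25). Globins took 0.00666% of UMIs in the sorted neutrophils with under 2% lyz, against 5.81% in the WKM neutrophils with under 2% lyz. These bands were matched on lyz alone. From the lowest to the highest lyz band, mmp9 stood at 1643, 536, 275 and 38.5 CPM in sorted neutrophils. In WKM neutrophils it stood at 438, 102, 29.7 and 8.45 CPM. Heat shock and immediate early genes took 0.817, 0.608, 0.548 and 0.478% of UMIs in sorted and 0.310, 0.257, 0.244 and 0.234% in WKM neutrophils. The mix of cells within a band, RNA from other cells, sorting and library preparation cannot be told apart as sources of the RP differences.

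Other genes of the translation apparatus moved with the RPs in part. These lists and their members were chosen with earlier results of the data known. Between sorted cells with under 2% and over 10% lyz, 3 of 9 measured elongation factors were at least 2-fold lower and 0 higher (median log2 -0.88, median feature 0.44), where 12.2% of all features were called lower and 27.9% higher. They were eef1g (1014 against 2494 CPM, -1.30), eef2b, the translocase (1102 against 2283 CPM, -1.05), and eef1b2 (1041 against 2203 CPM, -1.08). eef1a1l1, which delivers aminoacyl-tRNA, was at 6038 against 10217 CPM (-0.76). Of 105 ribosome biogenesis genes 38 were at least 2-fold lower and 3 higher (median -0.64), against the same 12.2 and 27.9% of features. The abundant ncl, nucleolin (444 against 380 CPM, 0.22), and gtpbp4 (175 against 182 CPM, -0.05) were not among those lower. In the WKM neutrophil gate 3 of 103 biogenesis genes were at least 2-fold lower and 9 higher (median 0.01), and 2 of 10 elongation factors lower and 1 higher (median -0.75), where 8% of all features were called lower and 26.2% higher. Of the 74 mitochondrial RP genes, 2 were at least 2-fold lower and 1 higher in the sorted comparison (median -0.31), and of 49 initiation factors 3 each way (median -0.13). In that comparison 12.2% of all features were called lower and 27.9% higher. Among 21 regulators of growth and of TOP mRNA translation 3 were at least 2-fold higher and 2 lower (median 0.51), with eif4ebp1, an inhibitor of cap-dependent initiation, at 256 against 94.05 CPM (1.45). Heat shock and immediate early genes had 8 of 14 at least 2-fold higher and 0 lower (median 1.199), where 27.9% of features were called higher. In the WKM neutrophil gate 9 of 12 were higher and 1 lower (median 1.58), where 26.2% of features were called higher. Of 11 ribosome-associated and other TOP mRNAs 2 were at least 2-fold lower and 0 higher (median -0.21). Features called lower were 12.2% in the sorted comparison and 8% in the WKM neutrophil gate, and those called higher 27.9 and 26.2%.

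In HSPC against neutrophils, 94 of 106 biogenesis genes were at least 2-fold higher and 0 lower (median log2 2.06, above the RP median of 1.31; median feature -0.10), gtpbp4 at 1140 against 221 CPM and ncl at 904 against 332 CPM among them. In this comparison 17.1% of all features were called higher and 26.8% lower. Elongation factors had 7 of 10 at least 2-fold higher (median 1.33; eef2b 5084 against 1789 CPM), initiation factors 17 of 49 higher and 2 lower (median 0.82), and mitochondrial RP genes 23 of 74 higher and 1 lower (median 0.82). faua, which encodes the fused precursor of Rps30 and has a symbol the rule does not take, stood near the RP median (8409 against 2909 CPM, 1.53), but tpt1, a TOP mRNA that encodes no ribosomal protein, did not (1349 against 1567 CPM, -0.22). The list of ribosome-associated and other TOP mRNAs as a whole took 2.86% of UMIs in HSPC, against 1.30% in neutrophils. Of the 22 members on the Diamond-Blackfan anemia list, 6 were at least 2-fold lower in the sorted comparison and 21 at least 2-fold higher in HSPC, beside 18 and 75 of all 82 members and 12.2 and 17.1% of features (median -0.73 in sorted neutrophils with under 2% over those with over 10% lyz, 1.27 in HSPC over neutrophils).

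**Figure D5:**
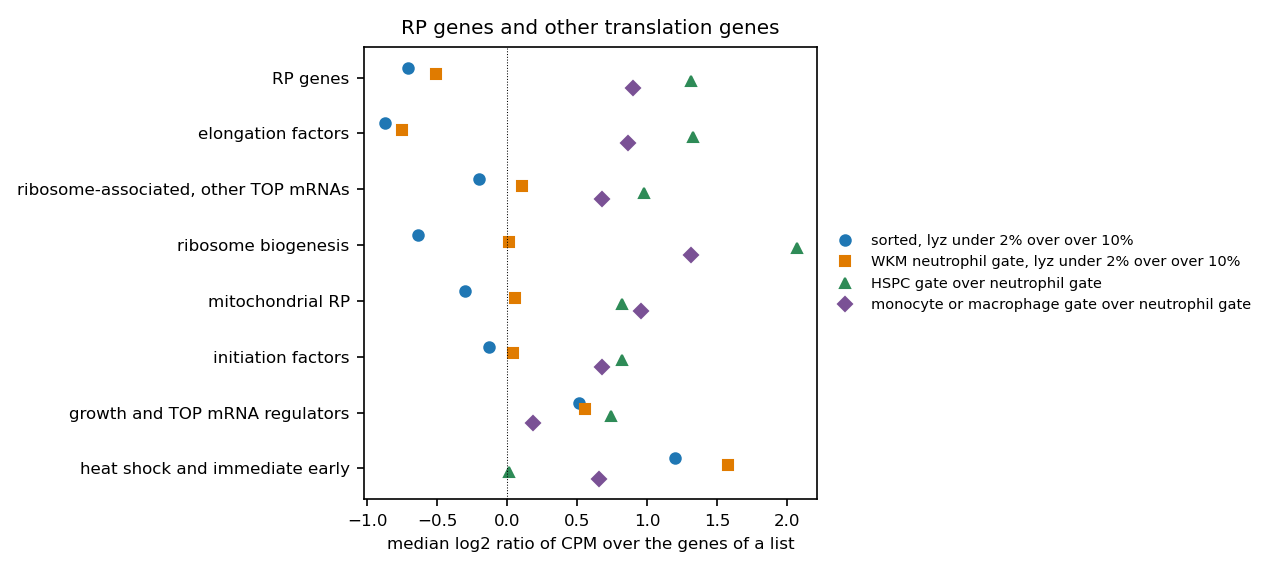
Median log2 ratio of CPM (x axis) of the RP genes and of 7 other gene lists (y axis) in 4 comparisons shown by marker. Elongation factors sit close to the RP genes in all 4, biogenesis genes exceed them in HSPC (2.06 against 1.31) and lie at 0.01 in WKM neutrophils.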

How the data were processed

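The authors aligned the 10x Genomics 3′ reads with Cell Ranger 3.1.0 to GRCz11 and deposited raw UMI count matrices, 1 per library (17846 sorted barcodes with 58772890 UMIs, 10688 WKM barcodes with 45939863 UMIs). Barcodes with at least 500 features and under 10% mitochondrial UMIs were kept, and doublets called by Scrublet in scanpy 1.11.5 (expected rate 10%; 1797 sorted, 122 WKM) were removed. UMIs were summed over the cells of a group and given as shares or CPM. Features with at least 20 counts over the groups compared were set against a fold of 2; this is a size rule, not a significance test. Intervals are exact (95%, counting error only). The WKM gates required under 2% lyz, membership of no other gate, and at least 3 HSPC, 5 non-globin erythroid, 4 monocyte or macrophage, 3 B cell or 2 T or NK cell markers. Cells of both the HSPC and erythroid gates formed a class. The neutrophil gate had no lyz limit, so its cells with 2% lyz or more could not be left out for markers of other classes. Deeper cells pass gates more easily, and 517 cells met no gate and 316 several. Named were the 10 members with most counts, the 5 largest and 5 smallest ratios among members with at least 100 counts, all paralog pairs, members next to the count minimum and abundant genes of each list. Members and lists were chosen with earlier results of these data known. The ratio step was tested on simulated counts. Alternatives changed the denominator, scaling, count minimum, fold, doublets, depth and gates. A gene withheld for evaluation is not reported here.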

Additional observations from a re-analysis of the deposited data

Results flagged for a closer look

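The RP share differed in opposite directions between the same lyz bands of both libraries. Cells with under 2% lyz over those with over 10% lyz were at log2 -0.72 in the sorted library and at 0.47 in the WKM library, and 81 of 82 members had opposite signs (79 of them lower in sorted and higher in WKM). With 1 library each, this difference was not tested. The share of all features with opposite signs was not computed. The median feature was at log2 0.44 in the sorted library and 0.19 in the WKM library. The RP ratios are of summed UMIs. By median cell the RP shares of the WKM bands were at 17.99 and 22.5%. In cells of the neutrophil gate alone the WKM value was -0.50, and 1 member differed in sign. That gate held 2167 of the 5020 WKM cells with under 2% lyz, against 6447 of the 6578 sorted cells. The WKM cells of the gates of all other classes lie in this band, so the bands did not hold the same mix of cells.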

How the results depend on the processing

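The log2 RP ratios are given in the order sorted bands, WKM bands, then HSPC, erythroid, monocyte or macrophage, B cell, and T or NK cell gate over neutrophils; the values as reported are -0.72, 0.47, 1.32, -0.26, 0.88, 1.002 and 1.06. They were -0.90, 0.52, 1.17, 0.89 (opposite sign), 0.73, 0.88 and 0.96 over UMIs other than lyz and globins, and -0.70, 0.18, 1.48, -0.10, 1.04, 1.17 and 1.22 as means of per-cell shares. All deposited barcodes gave -0.70, 0.36, 1.30, -0.62, 0.87, 1.09 and 1.03. Without doublet removal they were -0.70, 0.46, 1.30, -0.28, 0.87, 0.99 and 1.05, and without the 5 members with most counts -0.71, 0.46, 1.31, -0.28, 0.88, 0.99 and 1.06. A minimum of 1000 UMIs per cell moved none beyond its counting interval. Of the alternatives chosen after seeing the data, the neutrophil gate alone gave -0.72 in the sorted and -0.50 (opposite sign) in the WKM bands. With 1 more marker per gate the 5 gates were at 1.40, 0.24 (opposite sign), 0.95, 1.08 and 1.11, and over neutrophils with under 2% lyz at 1.65, 0.0795 (opposite sign), 1.22, 1.34 and 1.40. Members past the fold in the sorted bands numbered 18 of 82, where 40.2% of all features were past it in either direction. They were 60 under scaling by the median of ratios (34.6% of features) and 28 over UMIs other than lyz and globins (36.4%). At 1.5-fold they were 57 (56 lower and 1 higher, 62.2% of features), and otherwise 15 to 18 (37.2 to 41.9%). For HSPC the count of 75 (43.8% of features) stayed between 62 over UMIs other than lyz and globins (44.6%) and 80 at 1.5-fold (63.3%). Of 16 alternative paralog shares, 14 stayed within their counting intervals; without doublet removal, rpl22l1 (24.8%) and rplp2 (24.4%) in WKM neutrophils did not. No analysis paired by fish was made, because no map from cells to fish was used and each condition has 1 library. Spread between fish and between libraries is unknown, and ratios from under 100 counts are uncertain.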
